A study of Caenorhabditis elegans with 4 samples.

Results

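The genes described are the UDP-glucuronosyltransferases (*ugt*) and the glutathione S-transferases (*gst* and the omega class *gsto*) of *C. elegans*. They were chosen by the form of the gene name in the table of counts, which gave 112 of its 19913 genes, 65 *ugt* genes and 47 *gst* genes, of which 44 are named *gst* and 3 *gsto*. RNA of whole larvae at the L1 stage was sequenced in 4 libraries, 2 of wild-type N2 and 2 of *pry-1(mu38)*, a strain with a nonsense mutation in the gene of the Axin homolog PRY-1. All animals were grown on standard NGM plates at 20 degrees and synchronized by bleaching, with no other treatment. The study's methods call the libraries of a strain biological replicates, and no label says whether they came from separate cultures.

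Both families act on small lipophilic molecules, from drugs and toxins to products of the animal's own metabolism. UGT enzymes attach a sugar from a UDP-sugar donor, and GST enzymes attach the tripeptide glutathione, after which the more soluble conjugates can leave the cell through ABC transporters. In *C. elegans* many of these genes are used in the intestine, and several *gst* genes are targets of the transcription factor SKN-1, which the kinase GSK-3, a partner of Axin in the β-catenin destruction complex, can inhibit.

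The libraries held 27741375 to 33230854 counts on genes. A level is given in CPM, a gene's count per 1000000 counts of its library after TMM scaling, and a fold change as the log2 of *pry-1(mu38)* over N2. Of the members, 109 passed edgeR's filter on low counts, 64 *ugt* and 45 *gst*, and they were tested among 15101 genes with edgeR's quasi-likelihood test and Benjamini-Hochberg adjustment. The N2 libraries were farther apart (SD of the log2 difference 0.801 over all tested genes) than the *pry-1(mu38)* libraries (0.457). Over all tested genes, N2 replicate 1 lay nearer to *pry-1(mu38)* replicates 1 and 2 (0.714 and 0.545) than to N2 replicate 2. The distances of N2 replicate 2 from *pry-1(mu38)* replicates 1 and 2 were 1.16 and 0.875. An exact permutation test (two-sided) with 2 libraries a strain can reach no p under 0.333. The gene *pry-1* itself had 70.5 and 61.9 CPM in N2 and 118 and 108 CPM in *pry-1(mu38)*, which checks no label, since a nonsense allele need not lower the RNA.

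Summed over their genes, both families stood highest in N2 replicate 2. The *ugt* genes together had 2436 and 5337 CPM in N2 replicates 1 and 2, and 1986 and 2266 CPM in *pry-1(mu38)* replicates 1 and 2. The *gst* genes had 2330 and 6417 CPM in N2, and 2490 and 2985 CPM in *pry-1(mu38)*. For *ugt* both mutant sums lay below both N2 sums, whereas for *gst* they lay between the N2 libraries. In whole animals, fewer cells of a type and less RNA per cell cannot be told apart.

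**Figure D1:**
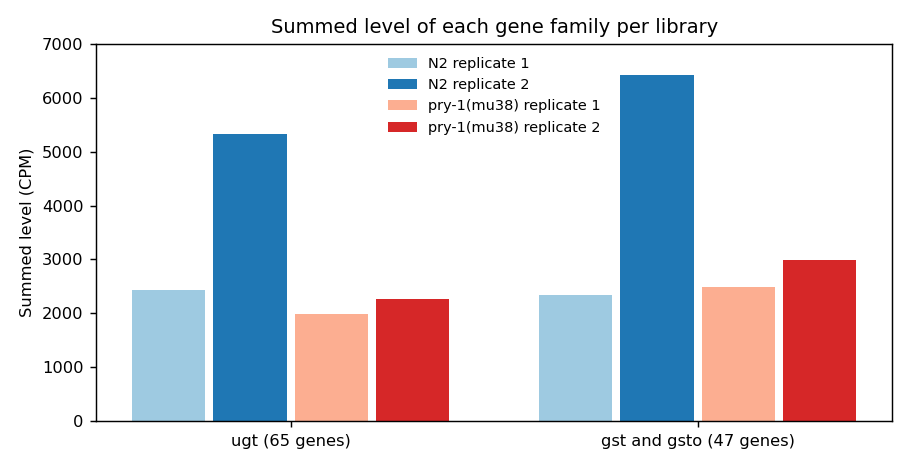
Summed level (CPM) of the 65 *ugt* genes and of the 47 *gst* and *gsto* genes, with 1 bar for each of the 4 libraries. N2 replicate 2 reached 5337 CPM for *ugt* and 6417 CPM for *gst*, and the other 3 libraries stayed between 1986 and 2985 CPM.

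The median log2 fold change was -0.58 over the tested *ugt* genes and -0.47 over the tested *gst* genes, beside -0.02 over all genes tested. A negative value was found in 45 of 64 *ugt* and 33 of 45 *gst* genes, against 51.7% of all genes tested. In *pry-1(mu38)* both libraries were lower than either N2 library in 27 *ugt* and 9 *gst* genes, where the share over all genes was 28.0%, and higher than either in 10 *ugt* and 6 *gst* genes, where it was 29.1%. The share lower than either was thus 42.2% for *ugt* and 20.0% for *gst*. A fitted value at least 2-fold lower was found in 21 *ugt* and 13 *gst* genes (12.5% of all genes) and at least 2-fold higher in 3 *ugt* and 2 *gst* genes (3.67%).

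None of the members passed the quasi-likelihood test over all genes, in which 0.00662% of the genes (1 gene) passed. With the limit of 0.05 put on the unadjusted p, there were 8 lower and 4 higher *ugt* genes and 6 lower and 4 higher *gst* genes. The shares over all genes tested were 8.53% lower and 6.10% higher, against 12.5% and 6.25% for *ugt* and 13.3% and 8.89% for *gst*. DESeq2, which gave an adjusted p for 62 *ugt* and 44 *gst* genes, called 8 members, *ugt-1*, *ugt-45*, *ugt-47*, *ugt-63*, *gst-8* and *gst-21* as lower and *ugt-4* and *gst-41* as higher, and its shares over all genes were 2.31% lower and 1.21% higher. After quantile normalization DESeq2 called the same 8 members, with shares over all genes of 2.10% and 1.57%. The exact test of edgeR called *ugt-47* and *gst-21* as lower and *ugt-4* as higher, with a share of 0.967% over all genes in each direction.

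The *gst* genes spanned a wide range of levels. Per kb of exon, which allows genes to be compared, *gst-5* had the highest mean level over the 4 libraries, at 1590 CPM per kb, followed by *gst-7* at 900, *gst-1* at 272, *gst-6* at 171 and *gst-33* at 168, while the median member stood at 22.7. The gene *gst-5* alone made up 30.9% to 33.0% of the CPM of the family in each library, and the 5 genes with the most CPM made up 64.4% over all libraries. Its level was 719 and 2120 CPM in N2 and 818 and 950 CPM in *pry-1(mu38)*. The *pry-1(mu38)* libraries thus stood near N2 replicate 1 and far under N2 replicate 2 (log2 fold change -0.68, standard error 0.52, adjusted p = 0.490). Exons of *gst-5* overlap those of *nos-1* on the other strand, and how the counting treated strand is not given in the sources used here.

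The same arrangement was found in *gst-7*, *gst-6* and *gst-1*, but not in *gst-33*. The level of *gst-7* was 368 and 1380 CPM in N2 and 381 and 552 CPM in *pry-1(mu38)*. The level of *gst-6* was 82.7 and 238 CPM in N2 and 92.7 and 112 CPM in *pry-1(mu38)*. In *gst-1* it was 162 and 303 CPM in N2 and 174 and 176 CPM in *pry-1(mu38)*. Both mutant libraries of these 3 genes lay between the N2 libraries, and the log2 fold change turned from -0.91 to 0.34 for *gst-7*, from -0.65 to 0.30 for *gst-6* and from -0.41 to 0.10 for *gst-1* when N2 replicate 2 was left out.

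**Figure D2:**
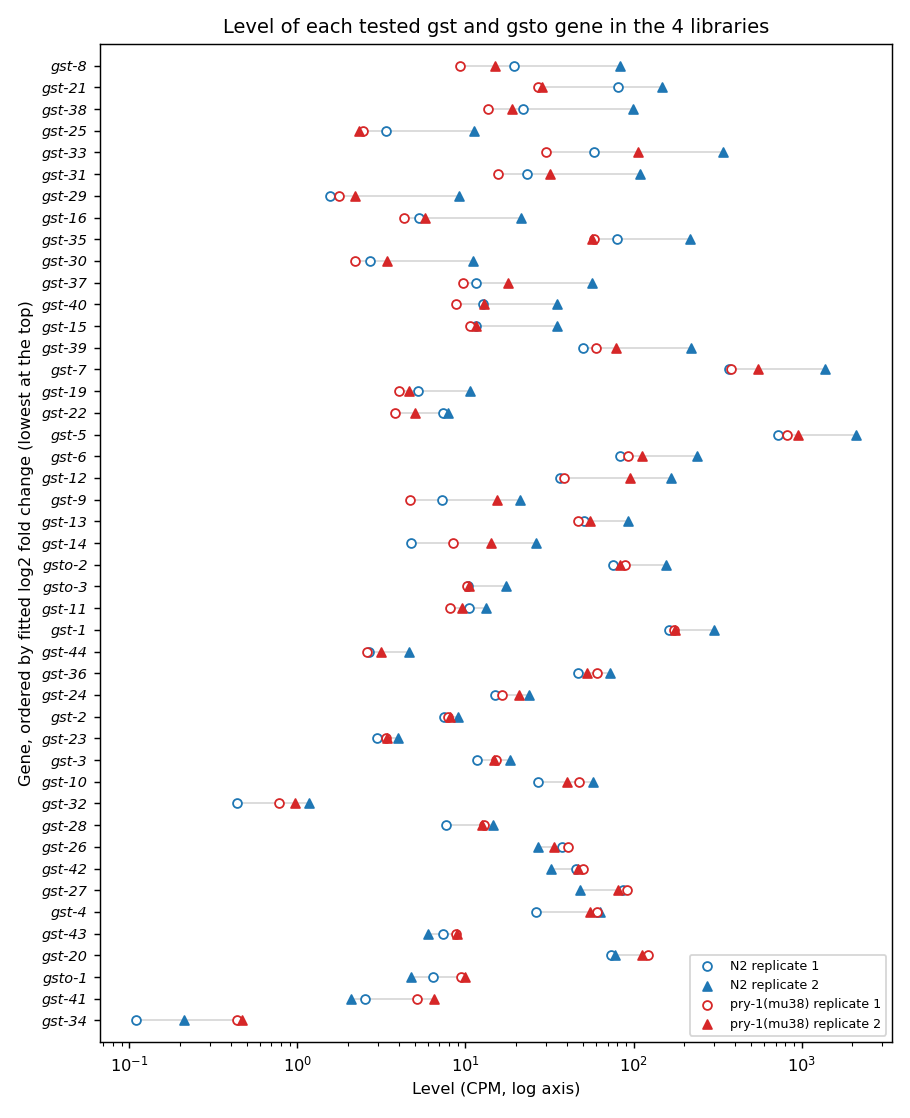
Level (CPM, log axis) of each tested *gst* and *gsto* gene in N2 replicates 1 and 2 (open blue circles and filled blue triangles) and in *pry-1(mu38)* replicates 1 and 2 (open red circles and filled red triangles), ordered by fitted log2 fold change. N2 replicate 2 is the highest library in 37 of the 45 genes, and in *gst-21*, *gst-41* and *gst-20* the red symbols stand clear of both blue ones.

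N2 replicate 2 was the highest library in 37 of the 45 tested *gst* genes and in 35 of the 64 *ugt* genes, against 39.6% of all genes tested. It stood at 2-fold or more of N2 replicate 1 in 24 *gst* genes (53.3%) and 25 *ugt* genes (39.1%), where the share over all genes was 14.8%. The opposite, N2 replicate 1 at 2-fold or more of N2 replicate 2, was found in no *gst* gene and in 5 *ugt* genes (3.09% of all genes). The widest ratio between the N2 libraries among the *gst* genes was that of *gst-33*, at 58.3 and 342 CPM, with 30.2 and 106 CPM in *pry-1(mu38)*. In *gst-29* the N2 libraries had 1.57 and 9.19 CPM and the *pry-1(mu38)* libraries 1.77 and 2.21 CPM. In *gst-14* they had 4.72 and 26.3 CPM in N2 and 8.47 and 14.1 CPM in *pry-1(mu38)*. The strains overlapped in each of these 3 genes, and without N2 replicate 2 their log2 fold changes of -1.56, -1.45 and -0.47 became 0.22, 0.34 and 1.25.

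Among the *gst* genes, *gst-21* was the clearest case of a lower level in *pry-1(mu38)*. It had 80.7 and 148 CPM in N2 and 27.0 and 28.6 CPM in *pry-1(mu38)*. The mutant libraries lay close together and well below both N2 libraries, at 4.11-fold less than N2 (log2 fold change -2.04, standard error 0.33, adjusted p = 0.337 in the quasi-likelihood test). The adjusted p was 1.79e-05 with DESeq2 and 1.05e-04 with edgeR's exact test, and leaving out N2 replicate 2 or N2 replicate 1 gave a log2 fold change of -1.54 or -2.41.

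A further *gst* gene called lower by DESeq2 was *gst-8*, at 19.4 and 83.6 CPM in N2 and 9.22 and 14.9 CPM in *pry-1(mu38)*. Its groups did not overlap, but N2 replicate 1 was closer to the mutant libraries than to N2 replicate 2 (log2 fold change -2.10, standard error 0.73, adjusted p = 0.337, and 0.0287 with DESeq2), and the value was -0.69 without N2 replicate 2. The gene *gst-38* had 601 and 3307 counts in N2 and 440 and 604 counts in *pry-1(mu38)*. After scaling for library size the mutant libraries, at 13.7 and 18.8 CPM, lay below both N2 libraries (log2 fold change -1.91, standard error 0.73, adjusted p = 0.337), and the value without N2 replicate 2 was -0.44. In *gst-35* the levels were 79.9 and 216 CPM in N2 and 58.1 and 56.8 CPM in *pry-1(mu38)*, and in *gst-25* they were 3.37 and 11.2 CPM in N2 and 2.45 and 2.34 CPM in *pry-1(mu38)*. The mutant libraries of both genes agreed closely and lay below N2 replicate 1, and the log2 fold changes without N2 replicate 2 were -0.48 for *gst-35* and -0.50 for *gst-25*. In *gst-19* there were 143 and 353 counts in N2 and 129 and 148 counts in *pry-1(mu38)*. After scaling these were 5.23 and 10.7 CPM in N2 and 4.0 and 4.61 CPM in *pry-1(mu38)*, with no overlap (log2 fold change -0.89, standard error 0.41, adjusted p = 0.349). The value without N2 replicate 2 was -0.28. The N2 libraries of *gst-22* differed little, at 7.36 and 7.89 CPM, and both lay above the *pry-1(mu38)* libraries at 3.82 and 4.99 CPM (log2 fold change -0.79, standard error 0.27, adjusted p = 0.337, and -0.74 without N2 replicate 2).

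Among the *gst* genes with a higher level in *pry-1(mu38)* and no overlap were *gst-41*, *gst-20* and *gsto-1*. The gene *gst-41* had 2.52 and 2.09 CPM in N2 and 5.18 and 6.49 CPM in *pry-1(mu38)*. It was 2.54-fold higher with no overlap (log2 fold change 1.34, standard error 0.30, adjusted p = 0.337, and 0.0382 with DESeq2), and leaving out any of the libraries gave values of 1.17 to 1.49. In *gst-20* there were 2009 and 2571 counts in N2 and 3945 and 3619 counts in *pry-1(mu38)*, which is 73.5 and 77.7 CPM in N2 and a mean of 118 CPM in the mutant. Each strain was tight and the mutant stood 1.56-fold higher (log2 fold change 0.64, standard error 0.15, adjusted p = 0.337). The omega class gene *gsto-1* had 6.44 and 4.74 CPM in N2 and 9.38 and 9.88 CPM in *pry-1(mu38)*, again without overlap (log2 fold change 0.79, standard error 0.27, adjusted p = 0.337), although its exons overlap those of *kle-2* on the other strand. The other omega class genes did not share this order. In *gsto-2* both mutant libraries lay between the N2 libraries, at 75.3 and 157 CPM in N2 and 89.5 and 83.2 CPM in *pry-1(mu38)*, and in *gsto-3* N2 replicate 1 overlapped them, at 10.4 and 17.4 CPM in N2 and 10.2 and 10.5 CPM in *pry-1(mu38)*.

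Some *gst* genes with known roles were spread over these patterns. The gene *gst-4*, a SKN-1 target widely used as a reporter of oxidative stress, had 26.3 and 63.3 CPM in N2 and 61.0 and 55.2 CPM in *pry-1(mu38)*. The mutant libraries stood near N2 replicate 2, so the fitted log2 value depended on the reference. It was 0.37 with all libraries (standard error 0.43, adjusted p = 0.633), 1.14 when N2 replicate 2 was left out and -0.13 when N2 replicate 1 was. Part of its exons is shared with *dhs-12* on the same strand. The gene *gst-10*, whose enzyme conjugates the lipid peroxidation product 4-hydroxynonenal, had 27.0 and 57.6 CPM in N2 and 47.4 and 40.3 CPM in *pry-1(mu38)*, and both mutant libraries lay between the N2 libraries (log2 fold change 0.05, standard error 0.38, adjusted p = 0.947). The zeta class gene *gst-42*, for an enzyme of tyrosine breakdown, had 45.5 and 32.4 CPM in N2 and 50.1 and 46.8 CPM in *pry-1(mu38)*. Both mutant libraries lay above both N2 libraries, by a small margin over N2 replicate 1 (log2 fold change 0.32, standard error 0.22, adjusted p = 0.458). The value without N2 replicate 2 was 0.09.

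The *ugt* genes were more even in level. Per kb of exon *ugt-62* was the highest, at 260 CPM per kb, and the next 4 genes, *ugt-9* and *ugt-41* at 102, *ugt-13* at 100 and *ugt-16* at 99.5, could not be ranked, since each differed more between libraries than from the others. The median *ugt* gene stood at 12.2 CPM per kb. The 5 *ugt* genes with the most CPM made up 39.5% of the CPM of the family over all libraries. The share of *ugt-62* alone was 20.5% in N2 replicate 2 and 10.7% to 12.2% in the other 3 libraries.

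**Figure D3:**
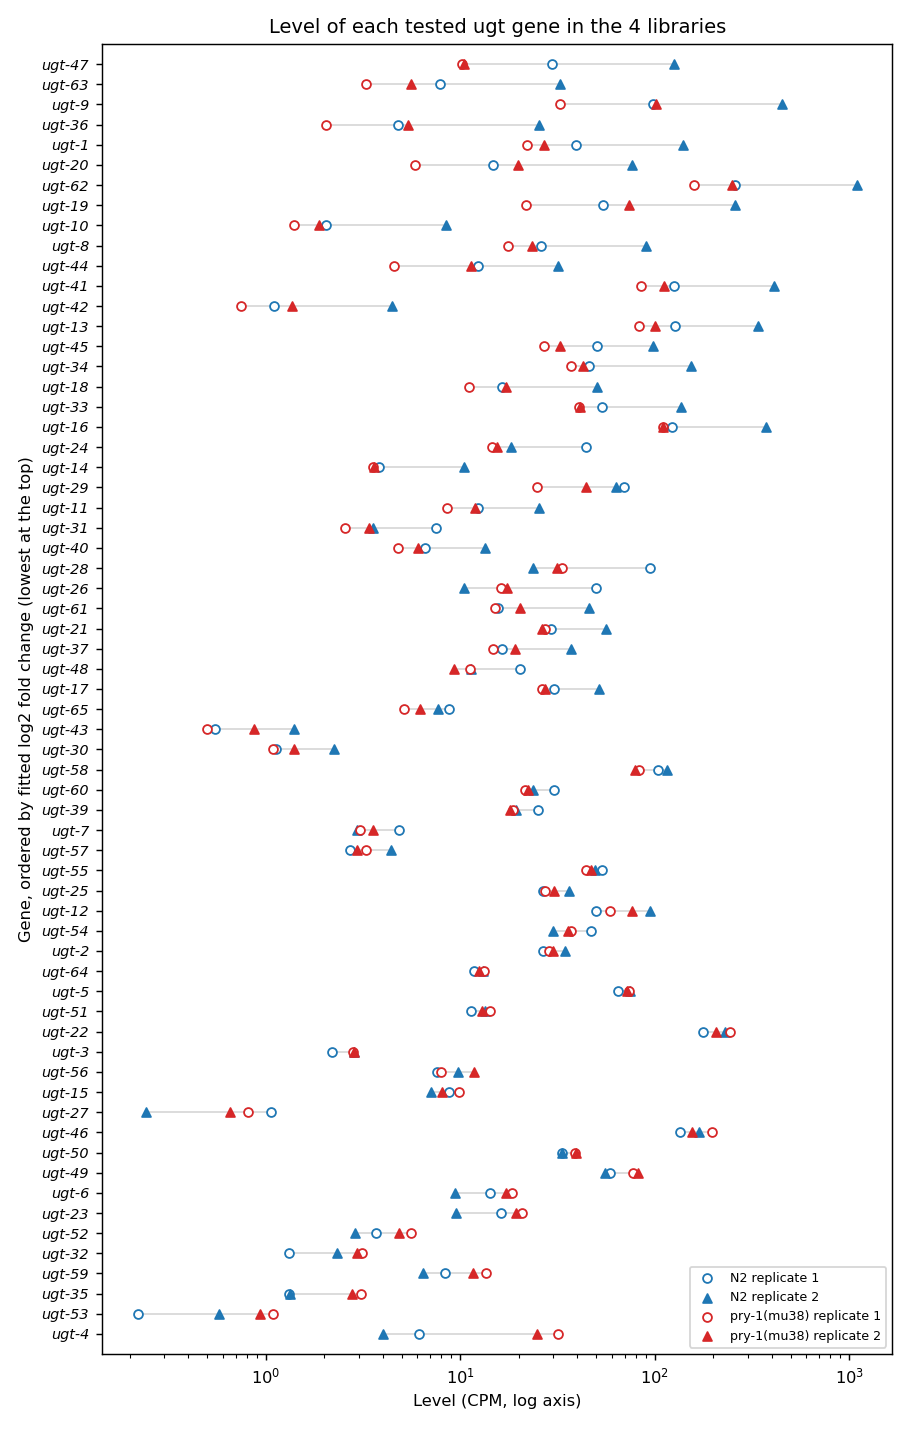
Level (CPM, log axis) of each tested *ugt* gene in N2 replicates 1 and 2 (open blue circles and filled blue triangles) and in *pry-1(mu38)* replicates 1 and 2 (open red circles and filled red triangles), ordered by fitted log2 fold change. At the top, N2 replicate 2 stands far to the right in most genes, and at the foot *ugt-4* has 4.02 and 6.11 CPM in N2 against 24.8 and 31.7 CPM in *pry-1(mu38)*.

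In the 5 *ugt* genes highest per kb N2 replicate 2 was far above the other libraries, but not in *ugt-22*, which followed at 96.3 CPM per kb. The level of *ugt-62* was 260 and 1090 CPM in N2 and 159 and 251 CPM in *pry-1(mu38)*. In *ugt-9* it was 97.4 and 451 CPM in N2 and 32.4 and 102 CPM in *pry-1(mu38)*. In *ugt-41* it was 125 and 411 CPM in N2 and 85.3 and 112 CPM in *pry-1(mu38)*. For *ugt-62* and *ugt-41* both mutant libraries lay below both N2 libraries, by a small margin against N2 replicate 1, and in *ugt-9* the strains overlapped. The log2 fold changes were -1.72 for *ugt-62* (adjusted p = 0.337), -2.03 for *ugt-9* (adjusted p = 0.341) and -1.44 for *ugt-41* (adjusted p = 0.337), and without N2 replicate 2 they were -0.35, -0.54 and -0.35. In *ugt-13* the levels were 127 and 339 CPM in N2 and 83.2 and 100 CPM in *pry-1(mu38)*, and in *ugt-16* they were 122 and 372 CPM in N2 and 110 CPM in each *pry-1(mu38)* library. Both genes were lower in each mutant library than in each N2 library, and their log2 fold changes of -1.35 and -1.17 became -0.48 and -0.16 without N2 replicate 2.

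The lowest log2 fold change of all members was that of *ugt-47*, which had 29.8 and 126 CPM in N2 and 10.2 and 10.4 CPM in *pry-1(mu38)*. The mutant libraries were nearly equal and lay at about the same distance below N2 replicate 1 as *gst-21* did (log2 fold change -2.93, standard error 0.71, adjusted p = 0.337). The adjusted p was 1.72e-04 with DESeq2 and 0.00920 with edgeR's exact test, and leaving out N2 replicate 2 or N2 replicate 1 gave -1.54 or -3.62. Exons of *ugt-47* overlap those of *srd-49* on the other strand. The other *ugt* genes that DESeq2 called lower were *ugt-1*, *ugt-45* and *ugt-63*. The level of *ugt-1* was 39.4 and 140 CPM in N2 and 22.1 and 26.8 CPM in *pry-1(mu38)* (log2 fold change -1.88, standard error 0.61, adjusted p = 0.337, and 0.0280 with DESeq2). In *ugt-63* it was 7.90 and 32.4 CPM in N2 and 3.29 and 5.55 CPM in *pry-1(mu38)* (log2 fold change -2.19, standard error 0.73, adjusted p = 0.337, and 0.0246 with DESeq2). Both genes had no overlap, and without N2 replicate 2 they stood at -0.69 and -0.84. In *ugt-45* the level was 50.2 and 98.3 CPM in N2 and 27.0 and 32.4 CPM in *pry-1(mu38)* (log2 fold change -1.32, standard error 0.36, adjusted p = 0.337, and 0.0364 with DESeq2), with -0.76 without N2 replicate 2.

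Some *ugt* genes were lower in *pry-1(mu38)* with nearly equal N2 libraries. In *ugt-29* the levels were 69.4 and 63.5 CPM in N2 and 24.8 and 44.1 CPM in *pry-1(mu38)*, so that the mutant libraries differed from each other more than the N2 libraries did (log2 fold change -0.95, standard error 0.31, adjusted p = 0.337). In *ugt-58* they were 104 and 115 CPM in N2 and 82.8 and 78.9 CPM in *pry-1(mu38)*, a small difference with no overlap (log2 fold change -0.44, standard error 0.15, adjusted p = 0.337).

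By contrast, *ugt-4* had the highest log2 fold change of all members. It had 167 and 133 counts in N2 and 1021 and 794 counts in *pry-1(mu38)*, which is 6.11 and 4.02 CPM against 31.7 and 24.8 CPM. Both mutant libraries stood far above both N2 libraries, at a 5.59-fold higher level (log2 fold change 2.48, standard error 0.30). The adjusted p was 0.292 in the quasi-likelihood test, 3.01e-08 with DESeq2 and 3.49e-07 with edgeR's exact test, and leaving out any of the libraries gave values of 2.20 to 2.81. In *ugt-35* the levels were 1.32 and 1.33 CPM in N2 and 3.10 and 2.78 CPM in *pry-1(mu38)* (log2 fold change 1.15, standard error 0.31, adjusted p = 0.337), with exons overlapping *aqp-6* on the other strand. In *ugt-59* they were 8.34 and 6.44 CPM in N2 and 13.6 and 11.6 CPM in *pry-1(mu38)* (log2 fold change 0.77, standard error 0.26, adjusted p = 0.337), with exons overlapping *sir-2.1* on the other strand. The level of *ugt-49* was 58.8 and 55.2 CPM in N2 and 77.7 and 82.1 CPM in *pry-1(mu38)* (log2 fold change 0.49, standard error 0.15, adjusted p = 0.337). In these 3 genes the strains did not overlap and the N2 libraries were close to each other. The gene *ugt-22*, at 177 and 229 CPM in N2 and 243 and 206 CPM in *pry-1(mu38)*, overlapped between the strains (log2 fold change 0.14, standard error 0.20, adjusted p = 0.696).

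The 5 *ugt* genes with N2 replicate 1 at 2-fold or more of N2 replicate 2 had the N2 libraries in the opposite order to most members. In *ugt-26* the level was 49.9 and 10.5 CPM in N2 and 16.2 and 17.4 CPM in *pry-1(mu38)*. In *ugt-28* it was 94.4 and 23.8 CPM in N2 and 33.5 and 31.6 CPM in *pry-1(mu38)*. Together with *ugt-27*, which had 29 and 8 counts in N2 and 26 and 21 counts in *pry-1(mu38)*, these are neighbours on chromosome I, and in all 3 the mutant libraries lay between the N2 libraries. The run also holds *ugt-25*, whose N2 libraries had 26.5 and 36.3 CPM, the other order. Their log2 fold changes were 0.68, 1.58 and 0.46 for *ugt-26*, *ugt-27* and *ugt-28* without N2 replicate 1, and -1.58, -0.54 and -1.54 without N2 replicate 2. The other members of this set were *ugt-24*, at 44.4 and 18.3 CPM in N2 and 14.6 and 15.5 CPM in *pry-1(mu38)*, and *ugt-31*, at 7.50 and 3.57 CPM in N2 and 2.55 and 3.40 CPM in *pry-1(mu38)*, both below N2 in each mutant library. All 5 were chosen after their values were seen.

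The direction of the *gst* genes depended on which N2 library served as the reference. Without N2 replicate 2 the median log2 fold change was -0.19 for *ugt* and 0.19 for *gst*, and without N2 replicate 1 it was -0.46 and -0.86. In 26 of 45 *gst* genes (57.8%) and 17 of 64 *ugt* genes (26.6%) the sign differed between these 2 settings, against 30.5% of all genes tested. The share was thus above that of all genes for *gst* and not for *ugt*. In 24 of the *gst* and 12 of the *ugt* genes *pry-1(mu38)* was below N2 replicate 2 and above N2 replicate 1. The share over all genes in this direction alone was not taken. With each library left out in turn, 33 *ugt* and 13 *gst* genes stayed lower (34.2% of all genes) and 13 *ugt* and 6 *gst* genes stayed higher (33.5%). Members that kept an absolute log2 fold change of 0.5 or more in each of these settings, a limit set after the values were seen, were *ugt-1*, *ugt-9*, *ugt-29*, *ugt-44*, *ugt-45*, *ugt-47*, *ugt-63*, *gst-8*, *gst-21* and *gst-22* on the lower side and *ugt-4*, *ugt-35*, *ugt-53*, *ugt-59*, *gsto-1*, *gst-20*, *gst-34* and *gst-41* on the higher side. Of these, *gst-34* had 3 and 7 counts in N2 and 14 and 15 counts in *pry-1(mu38)*, and *ugt-53* had 6 and 19 counts in N2 and 35 and 30 counts in *pry-1(mu38)*, so both rest on few reads.

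**Figure D4:**
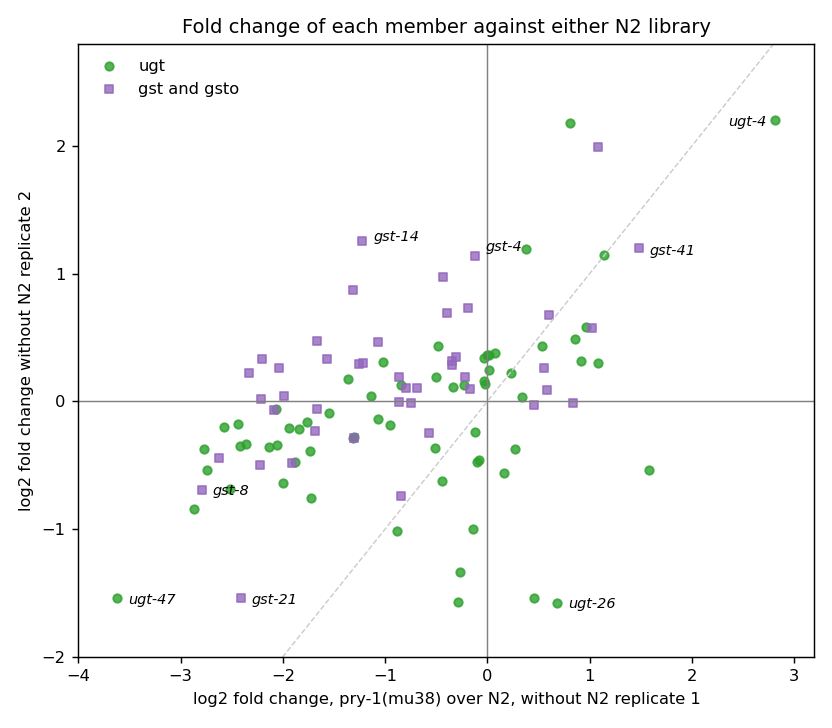
Log2 fold change of *pry-1(mu38)* over N2 for each tested *ugt* gene (green circles) and *gst* gene (purple squares), without N2 replicate 1 on the x axis and without N2 replicate 2 on the y axis, with a dashed line where both values are equal. Both axes share the *pry-1(mu38)* libraries. The upper left field holds 24 *gst* and 12 *ugt* genes, while *ugt-4* (2.81 and 2.20), *gst-21* (-2.41 and -1.54) and *ugt-47* (-3.62 and -1.54) keep their side. The share of all genes in that field was not taken.

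The *pry-1(mu38)* libraries showed a weaker form of the same difference. Replicate 2 was above replicate 1 in 33 of the 45 *gst* genes and 42 of the 64 *ugt* genes, against 7428 of all 15101 tested genes. The median ratio was 1.16 for *gst* and 1.06 for *ugt*, beside 0.997 over all genes tested. The median ratio of N2 replicate 2 to N2 replicate 1 was 2.08 and 1.48, beside 0.995. Across genes, Pearson's r between the log2 ratio of the N2 libraries and that of the *pry-1(mu38)* libraries was 0.615 over the *gst* genes, 0.602 over the *ugt* genes and 0.493 over all 15101 tested genes. Genes of 1 library share its depth and are not independent replicates, so these are descriptions. The *ugt* genes moved most by leaving out a single library were *ugt-19*, *ugt-20* and *ugt-36*. In *ugt-20*, for example, the level was 14.7 and 76.4 CPM in N2 and 5.84 and 19.9 CPM in *pry-1(mu38)*, and replicate 2 was more than 3 times replicate 1 in both strains. With the replicate number as a block, which treats libraries of the same number as pairs, the quasi-likelihood test called 22 *ugt* and 12 *gst* genes lower (11.5% of all genes) and *ugt-4*, *ugt-35*, *gst-20* and *gst-41* higher (4.59% of all genes). That pairing is an assumption, because the libraries share only a number.

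Many members lie side by side in the genome. In the annotation of build WBcel235, used here for neighbours and exon lengths only, 41 of the 65 *ugt* genes are on chromosome V and 25 of the 47 *gst* genes on chromosome II. With no other protein-coding gene between them, 30 *ugt* genes form 11 runs of up to 4 genes and 24 *gst* genes form 5 runs of up to 9. All tested genes had the same sign in 7 of the *ugt* runs, 6 of them lower and 1 higher, and in 1 *gst* run, *gst-6*, *gst-7* and *gst-8*, which was lower. Without N2 replicate 2, 3 of the 6 lower *ugt* runs and the higher run still shared their sign, and the *gst* run did not. The run of *ugt-11*, *ugt-9* and *ugt-10* had log2 fold changes from -2.03 to -0.89, and that of *ugt-8*, *ugt-14* and *ugt-13* was lower throughout, with *ugt-8* at -1.50 and *ugt-13* at -1.35. The pair *ugt-19* and *ugt-20* was at -1.71 and -1.83. Reads that align at several places count for no gene in this table (8.04% to 11.6% of a library), which undercounts any member that has a nearly identical copy.

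The higher run, *ugt-5*, *ugt-4*, *ugt-6* and *ugt-3*, was far from uniform. Beside *ugt-4* at 2.48, the log2 fold changes were 0.59 for *ugt-6* (standard error 0.27), 0.16 for *ugt-3* (standard error 0.31) and 0.07 for *ugt-5* (standard error 0.16). The level of *ugt-5* was 64.8 and 74.3 CPM in N2 and 73.4 and 72.1 CPM in *pry-1(mu38)*, almost the same in all libraries. Neighbours were also unlike in the longest *gst* run, in which *gst-20* was at 0.64, *gst-24* at -0.06 and *gst-16* at -1.41, and in *ugt-35* and *ugt-34*, at 1.15 and -1.32.

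**Figure D5:**
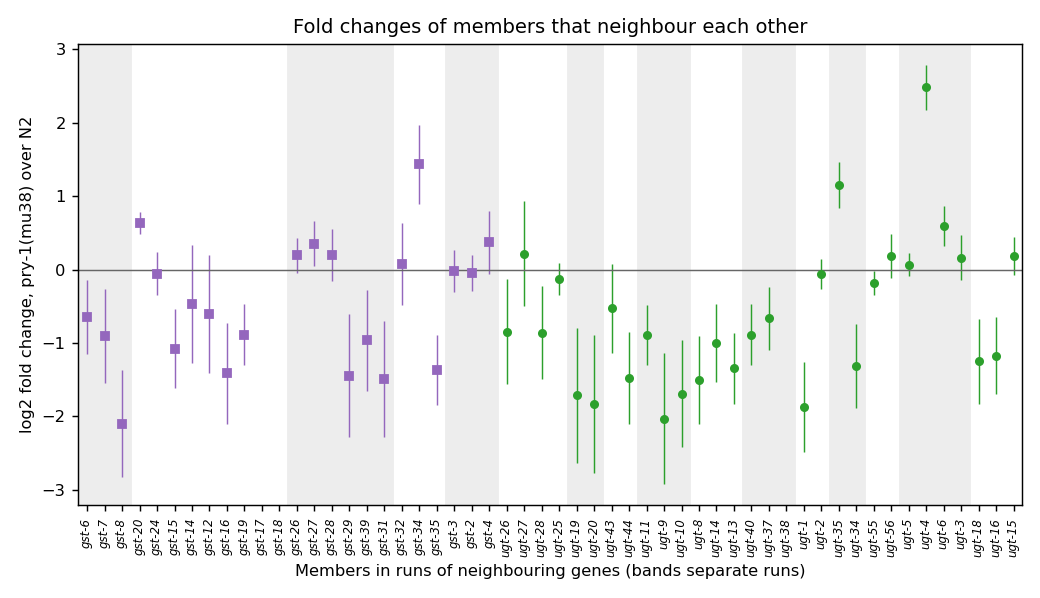
Fitted log2 fold change of *pry-1(mu38)* over N2, with its standard error as a bar, for each member that lies next to another member of its family (purple squares *gst*, green circles *ugt*), with grey and white bands marking the 16 runs. Positions of *gst-17*, *gst-18* and *ugt-38* are empty because these genes were not tested. The point of *ugt-4* at 2.48 stands apart from *ugt-5* at 0.07 next to it.

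None of the listed genes that make, carry or use the co-substrates passed the quasi-likelihood test over all genes. Of the enzymes of glutathione synthesis and recycling, *gcs-1*, for glutamate-cysteine ligase, stood at -0.28 on the log2 scale (standard error 0.235), *gss-1*, for glutathione synthetase, at 0.13 (standard error 0.15) and *gsr-1*, for glutathione reductase, at 0.17 (standard error 0.18). None of these 3 had an unadjusted p under 0.05. Among 14 other glutathione enzymes, peroxidases, glutaredoxins and the kappa class transferases, 7 were higher and 7 lower, with a median of -0.18. An unadjusted p under 0.05 was found for 2 lower and 1 higher gene, near the shares of 8.53% and 6.10% over all genes. They were the peroxidase gene *gpx-5*, with 1293 and 3924 counts in N2 and 788 and 1144 counts in *pry-1(mu38)*, the kappa class gene *gstk-2*, with 915 and 1224 counts in N2 and 799 and 794 counts in *pry-1(mu38)*, and the glutaredoxin gene *glrx-21*, with 346 and 341 counts in N2 and 563 and 551 counts in *pry-1(mu38)*. None of them was called by the quasi-likelihood test, DESeq2 or the exact test. For the UDP-glucuronate side, *sqv-4*, for UDP-glucose dehydrogenase, stood at 0.345 on the log2 scale (standard error 0.205) and *sqv-7*, for a nucleotide sugar transporter, at 0.58 (standard error 0.17), while *sqv-1*, for UDP-glucuronate decarboxylase, stood at -0.50 (standard error 0.24). Of these 3 only *sqv-7* had an unadjusted p under 0.05 in the quasi-likelihood test, beside 6.10% of all genes higher at that limit. It was not called by DESeq2 or the exact test either.

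The ABC transporters that can export conjugates and drugs were mostly lower in value. Their sum was 2110 and 3310 CPM in N2 and 1500 and 1670 CPM in *pry-1(mu38)*. Of 22 tested *mrp* and *pgp* genes, 17 were below 0 on the log2 scale and the median was -0.93. Without N2 replicate 2 there were 16 below 0 and the median was -0.25. At an unadjusted p under 0.05 there were 8 lower and 1 higher, beside 8.53% and 6.10% of all genes, and the quasi-likelihood test over all genes called none. DESeq2 called 7 lower and 1 higher, beside 2.31% and 1.21% of all genes, and the exact test 5 lower and 1 higher, beside 0.967% each way. The lowest adjusted p was that of *pgp-4*, which had 1418 and 1958 counts in N2 and 545 and 610 counts in *pry-1(mu38)* (log2 fold change -1.63, standard error 0.18, adjusted p = 0.292). Both N2 libraries stood well above both mutant libraries, and the value was -1.53 without N2 replicate 2. The opposite order was seen in *pgp-11*, with 165 and 204 counts in N2 and 420 and 486 counts in *pry-1(mu38)* (log2 fold change 1.21, standard error 0.23, adjusted p = 0.337).

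No gene in a list of 13 regulators of these families passed the quasi-likelihood test, which 1 of all 15101 tested genes passed. Of the 13 genes, 10 were below and 3 above 0 on the log2 scale, and the median was -0.18. None of the 13 reached an unadjusted p under 0.05 or was called by the quasi-likelihood test, DESeq2 or the exact test. The values were -0.22 for *skn-1* (standard error 0.23), 0.07 for *gsk-3* (standard error 0.15) and -0.69 for *wdr-23*, which encodes an inhibitor of SKN-1 (standard error 0.32). Without N2 replicate 2 they were 0.07, 0.06 and -0.21.

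Marker genes of tissues were summed to set beside the family levels. Intestinal markers, of which 6 of 7 were matched and tested, summed to 2210 and 2290 CPM in N2 and 2160 and 2020 CPM in *pry-1(mu38)*, so N2 replicate 2 did not stand apart in them. Body wall muscle markers (4 of 4 tested) summed to 11600 and 21200 CPM in N2 and 11300 CPM in each *pry-1(mu38)* library. Pharynx markers (4 of 4) summed to 344 and 909 CPM in N2 and 112 and 216 CPM in *pry-1(mu38)*. The muscle and pharynx sums were thus highest in N2 replicate 2, as the family sums were, and their part in the family values was not tested. Single genes weighed heavily in them. The gene *unc-54* made up most of each muscle sum, and *myo-2*, at 259 and 746 CPM, most of the N2 pharynx sums. The other muscle markers, *myo-3*, *unc-15* and *hlh-1*, were highest in N2 replicate 2 too. The pharynx genes *ceh-22* and *tnt-4* were also highest in N2 replicate 2. In *pha-4* the libraries differed little, at 50.2 and 56.0 CPM in N2 and 51.3 and 48.1 CPM in *pry-1(mu38)*. Neuronal markers (5 of 5) summed to 707 and 949 CPM in N2 and 617 and 669 CPM in *pry-1(mu38)*, again highest in N2 replicate 2. Epidermal markers (4 of 5 tested) summed to 171 and 117 CPM in N2 and 143 and 150 CPM in *pry-1(mu38)*. Markers of older animals had low sums. Oocyte and eggshell genes (7 of 7) summed to 6.55 and 11.2 CPM in N2 and 17.6 and 19.8 CPM in *pry-1(mu38)*, and sperm genes (2 of 6 tested) to 1.17 and 1.78 CPM in N2 and 0.838 and 1.15 CPM in *pry-1(mu38)*, with no count of *msp-19* and *msp-113* in N2 replicate 1 and of *msp-55* in *pry-1(mu38)* replicate 1. All 7 oocyte and eggshell genes were higher in value in *pry-1(mu38)*, 6 of them without overlap, where the share over all genes was 29.1%. Of the 7, *perm-4*, with 1 and 10 counts in N2 and 50 and 67 counts in *pry-1(mu38)*, was called by DESeq2 (adjusted p = 0.0109) and by edgeR's exact test (adjusted p = 0.00552). The shares called higher over all genes were 1.21% with DESeq2 and 0.967% with the exact test. The part of the markers of older animals in the family values was not tested.

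The 3 members left untested had few reads. The gene *gst-17* had 3 and 2 counts in N2 and 1 and 4 counts in *pry-1(mu38)*, and *gst-18* had 0 and 4 counts in N2 and 1 count in each *pry-1(mu38)* library. The exons of these neighbours overlap on the same strand, so their reads may be split or set aside. In *ugt-38* there were 6 and 27 counts in N2 and 0 and 5 counts in *pry-1(mu38)*, and a count of 0 still allows up to 3 counts, or 0.0931 CPM in *pry-1(mu38)* replicate 1 and 0.110 CPM in N2 replicate 1. These genes were not tested for a difference. In all, 24 members have exons that overlap another gene in the annotation, and their counts are uncertain to that extent.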

How the data were processed

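The table deposited by the authors holds whole-number read counts per gene, without normalization, for 4 libraries, with a read counter's summary lines, which were left out (no feature 5.32% to 6.75%, ambiguous 0.556% to 0.620% of a library). The study's methods name cutadapt/trimgalore, Bowtie and build ce6, eXpress, quantile normalization and DESeq, and the series' processing notes name BWA. The counter, its strand setting and annotation are not given in the sources used here.

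Tests used edgeR 4.0.16 in R 4.3.3: filterByExpr (minimum count 10), TMM, glmQLFit with the current quasi-likelihood method, and adjustment over all 15101 tested genes at 0.05. Alternatives were DESeq2 1.42.0, edgeR's exact test, other scalings and filters, quantile normalization (limma 3.58.1), a replicate block and each library left out. Scripts were tested on simulated data with less spread between libraries than these data, which checked the code and not how the tests perform here. Library ratios used 0.1 CPM added to each value. Figures used matplotlib 3.10.9.

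Members were taken by name. Genes named individually were a reference set, the 10 members of each family with the smallest p without overlap and a mean of at least 10 counts, the 5 highest per kb, the 3 moved most by a left-out library, members called by any tool, and runs of neighbours. Members and lists were chosen with earlier results of these data known. All 112 names matched the WBcel235 annotation; coordinates are not given because its build differs from that of the counts. No sequence was used, so closely similar proteins, also part of that rule, were not named by it. Other members named were chosen after their values were seen. In the transporter list *pgp-15*, and in the intestinal list *pept-1*, matched no row.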

Additional observations from a re-analysis of the deposited data

How the results depend on the processing

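The counts of called members differed with the test and the block. The quasi-likelihood test called no member, DESeq2 and quantile normalization with DESeq2 each called 5 *ugt* and 3 *gst* genes, and the exact test called 2 and 1. At an unadjusted p under 0.05 the 12 *ugt* genes became 21 with DESeq2, 23 after quantile normalization and 22 with the exact test. The replicate block called 24 *ugt* and 14 *gst* genes, where the shares over all genes were 11.5% lower and 4.59% higher. At an unadjusted p under 0.05 it gave 37 and 21. Shares over all genes at that limit were not taken for these alternatives, so their counts there are not read as results about the families. The deviations of N2 replicate 1 and *pry-1(mu38)* replicate 1 from their strain means had r = 0.485 over genes, but with 2 pairs the libraries share only a number. With a library left out, the number called ranged from 2 (without *pry-1(mu38)* replicate 1) to 33 (without N2 replicate 1) for *ugt* and from 1 to 26 for *gst*, under the assumption that the lone library varies like the other strain. At an unadjusted p under 0.05 it ranged from 16 to 38 for *ugt* and from 7 to 33 for *gst*. For the fits with a library left out, shares over all genes were not taken. Their counts, called or at the unadjusted limit, are therefore not read as results about the families. Without N2 replicate 1, the only N2 library left was N2 replicate 2, in which both family sums were highest. The medians with a library left out ranged from -0.65 to -0.19 for *ugt* and from -0.86 to 0.19 for *gst*. Scaling, filters and the earlier quasi-likelihood method, which was chosen after seeing the data, changed neither the direction of the medians nor the number called.

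With a library left out in turn, the sign turned at least once in 26 *gst* and 18 *ugt* genes, without N2 replicate 2 in 22 and 9. Shares over all genes were not taken for these counts, so they are not read as results about the families. Among the genes that turned, the values ranged from -0.125 to 1.136 in *gst-4*, from -0.795 to 0.103 in *gst-1*, from -1.259 to 0.294 in *gst-5*, from -1.567 to 0.336 in *gst-7* and from -0.393 to 0.695 in *gst-10*. The range was -0.032 to 0.337 in *ugt-22*, -1.217 to 0.303 in *gst-6*, -2.729 to 0.22 in *gst-33*, -2.204 to 0.335 in *gst-29* and -1.222 to 1.253 in *gst-14*. Leaving out *pry-1(mu38)* replicate 1 also turned *gst-10*, to -0.07. With 2 libraries a strain, a difference that was not called may still be real, and the smallest detectable difference was not determined.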
